A study of Rattus norvegicus with 18 samples.

Results

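rno-miR-16 and rno-miR-107 are rat microRNAs whose seeds overlap. They were chosen by name, as 2 of the 692 mature rat sequences of the RefSeq table that were counted in these libraries, 622 of which had at least 1 read. Small RNA was sequenced from the cortex of Sprague Dawley rats at 8 stages, embryonic days E10, E13 and E17 and postnatal days P0, P3, P7, P14 and P28. No animal carried an engineered allele or received an agent. P0 had 2 tissue samples and every other stage 1, so that stage and tissue sample cannot be told apart except at P0. Each of the 9 tissue samples was sequenced in a pair of technical replicates, here run 1 and run 2, which gives 18 libraries. By the labels the 2 earliest tissues were forebrain and all later ones somatosensory cortex, while the study's methods give whole cortex at the early stages and its dorsolateral part later. The number of animals in a sample is not given in the sources used here.

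A microRNA guides an Argonaute protein to messenger RNAs that pair with its seed, bases 2 to 8 from the 5′ end. miR-16 belongs to the miR-15/16 group, known for restraining cell cycle genes such as cyclins and the survival factor BCL2. miR-103 and miR-107 lie in introns of pantothenate kinase genes, which start coenzyme A synthesis, and are known for targeting Dicer, CDK6 and CDK5R1. They hold the same AGCAGC core as miR-16 but 1 base nearer to the 5′ end, so that it starts before the seed, and the groups are placed in a superfamily for this core.

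The mature sequences, from RefSeq (GRCr8), are shown because the seed groups and the base that separates rno-miR-107 from rno-miR-103 decide how reads can be counted. Capitals mark the seed, bases 2 to 8.
rno-miR-16: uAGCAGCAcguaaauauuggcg
rno-miR-15b: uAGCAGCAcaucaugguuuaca
rno-miR-195: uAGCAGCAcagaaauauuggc
rno-miR-322: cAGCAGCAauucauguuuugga
rno-miR-497: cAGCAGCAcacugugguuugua
rno-miR-503: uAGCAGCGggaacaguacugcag
rno-miR-107: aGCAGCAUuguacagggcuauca
rno-miR-103: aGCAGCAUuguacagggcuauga
rno-miR-16 lies at chr2:155555343-155555364 on the plus strand inside Smc4, a condensin subunit gene, next to rno-miR-15b at chr2:155555197-155555218. rno-miR-107 lies at chr1:241750431-241750453 on the minus strand inside Pank1. The Mir103a2 entry of rno-miR-103 lies at chr3:138963278-138963300 on the plus strand inside Pank2. Reads were counted by mature sequence and not by locus. rno-miR-195 and rno-miR-497 are neighbours on chromosome 10, and rno-miR-322 and rno-miR-503 on chromosome X. rno-miR-503 has another last seed base than the rest of the miR-15/16 group. rno-miR-107 and rno-miR-103 are identical over 21 bases and differ at position 22 alone, counted from the 5′ end, so a tag that ends by position 21 fits both.

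The tags below, a shorter and a full-length form of each, show the base positions at which the tags differ. Capitals mark the seed in the tags of rno-miR-16 and position 22 in those of rno-miR-107 and rno-miR-103.
rno-miR-16, 19 nt: tAGCAGCAcgtaaatattg
rno-miR-16, 22 nt: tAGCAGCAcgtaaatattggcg
shared by rno-miR-107 and rno-miR-103, 21 nt: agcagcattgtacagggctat
rno-miR-107, 23 nt: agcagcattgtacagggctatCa
rno-miR-103, 23 nt: agcagcattgtacagggctatGa
The 19-nt tag of rno-miR-16 had 61886 reads over the 9 run 1 libraries and 12713 over those of run 2, whereas the 22-nt tag, the mature sequence itself, had 7492 and 34750 reads. The 21-nt shared tag had 558536 reads in run 1 and 848302 in run 2, the 23-nt tag of rno-miR-107 had 134491 and 347722, and that of rno-miR-103 had 244526 and 1084118. In single libraries the 19-nt tag of rno-miR-16 led in 15, the 22-nt tag in 2 (E10 and P3 of run 2) and an 18-nt tag in 1 (P0 replicate 1 of run 1), and E10 alone gave 23960 of the run 2 reads of the 22-nt tag.

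The libraries held 4899010 to 16590379 clean reads, so that 3 reads, the limit that a count of 0 allows, correspond to at most 0.612 TPM (reads of a name per 1000000 clean reads of the library). Reads of 18 to 20 nt made up 5.93% (E10, run 2) to 49.4% (P0 replicate 1, run 1) of a library. Of 16 cell type markers listed, 14 had a sequence in the table and none of these was at 0 in any library. The summed level of the neuronal markers rno-miR-128 and rno-miR-138 was 1640 to 7667 TPM at E10 and E13 and 13546 to 222705 TPM later, and rno-miR-9a, the marker of neural progenitors and brain, was at 7074 TPM or more everywhere. The 4 mesenchyme and vessel wall markers summed to 18780 to 51800 TPM at E10 and E13 and to 228 to 5846 TPM from E17 on, a sum carried at the early stages by rno-miR-199a-3p, whereas rno-miR-143 was highest at P14 in run 1 (3915 TPM) and at P28 in run 2 (1199 TPM). The 2 erythroid markers summed to 68.1 to 1724 TPM at E10 and E13 and to 25.9 to 89.9 TPM later. The part of such cells in the stage differences below was not tested, and in bulk tissue fewer cells of a type and less RNA per cell cannot be told apart.

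For both members the stage with the highest level differed between the runs. The level of rno-miR-16 in run 1, counting every matching tag, was 1107 TPM at E10, 3159.5 at E13, 3704 at E17, 7741 and 441 in the P0 samples, 414 at P3, 1057 at P7, 868 at P14 and 783 at P28. In run 2 it was 1838 TPM at E10, 573 at E13, 719 at E17, 440.3 and 427 at P0, 288 at P3, 194 at P7, 194 at P14 and 285 at P28. Run 1 therefore placed the highest level in P0 replicate 1 and run 2 placed it at E10. The level ranked 18th to 62nd among the names of a run 1 library and 48th to 99th in run 2.

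**Figure D1:**
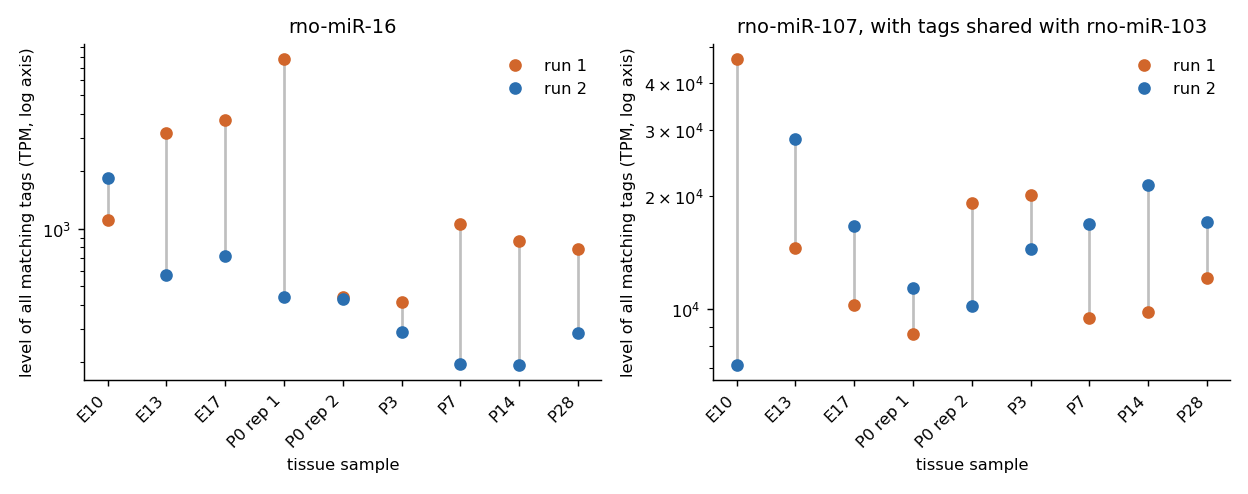
Level of all matching tags of rno-miR-16 (left) and rno-miR-107 (right) in each tissue sample, in TPM on a log axis; a point is 1 library and a grey line joins the runs of a sample. For rno-miR-16 run 1 lies above run 2 in 8 of 9 samples, most at P0 replicate 1 (7741 and 440.3 TPM), and for rno-miR-107 the runs lie farthest apart at E10 (46294 and 7129.9 TPM).

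The P0 samples, the only replicated stage, had a mean of 4091 ± 5162 TPM (SD, n = 2) in run 1 and 434 ± 9.07 TPM (SD, n = 2) in run 2. Their levels differed 17.5-fold in run 1 and 1.03-fold in run 2. The P0 maximum seen in run 1 thus came from 1 library, in which 49.4% of all reads were 18 to 20 nt long while markers in the P0 samples of run 1 were close for rno-miR-128 (81638 and 82131 TPM, replicate 1 first) and apart for rno-miR-138 (485 and 271 TPM), rno-miR-9a (13331 and 49183 TPM) and the oligodendrocyte marker rno-miR-219a-2 (139.5 and 5.95 TPM).

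Over the 9 tissue samples rno-miR-16 was lower in run 2 than in run 1, with a log2 ratio of -1.65 ± 1.49 (mean and SD of 9 ratios of TPM, lower in 8 of 9 samples; two-sided exact sign-flip permutation p = 0.0195, where 0.00391 is the smallest p possible). edgeR's quasi-likelihood test with the tissue sample as block gave a difference of -1.25 ± 0.40 (log2, SE, adjusted p = 0.0181), and over all names 17.5% were lower and 26.1% higher in run 2. With library totals in place of TMM that balance turned, with 121 of 475 names lower and 77 higher. Without the P7 sample the adjusted p of edgeR was 0.0538. For tags identical to the mature sequence the direction was the opposite. They were higher in run 2 by 1.16 ± 1.32 on the log2 scale (8 of 9 samples, exact permutation p = 0.0234), and edgeR gave 1.01 ± 0.37 (adjusted p = 0.0381), with 24.2% of names higher in run 2 on such tags.

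Short and long tags of rno-miR-16 moved differently between the runs. Tags of rno-miR-16 ending by position 20 stood at 813, 2961, 3380, 7366, 376, 308, 1034, 842 and 698 TPM in run 1, in the order E10, E13, E17, P0 replicate 1, P0 replicate 2, P3, P7, P14 and P28. In run 2 they stood at 6.52, 384, 423.8, 244, 249, 161, 116, 126.2 and 166 TPM. They were lower in run 2 in 9 of 9 samples, with a mean log2 ratio of run 2 to run 1 of -3.04 ± 1.95 (exact permutation p = 0.00391). The longer tags, which end at position 21 or later, stood at 295, 198, 323.5, 375, 64.7, 106, 23.2, 25.5 and 84.7 TPM in run 1 and at 1831, 189, 295, 196, 178, 127.7, 78.7, 67.7 and 119 TPM in run 2. Their runs did not differ beyond the spread of the samples (0.76 ± 1.12 on the log2 scale, higher in run 2 in 6 of 9, exact permutation p = 0.0781), a split made with the values in view.

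**Figure D2:**
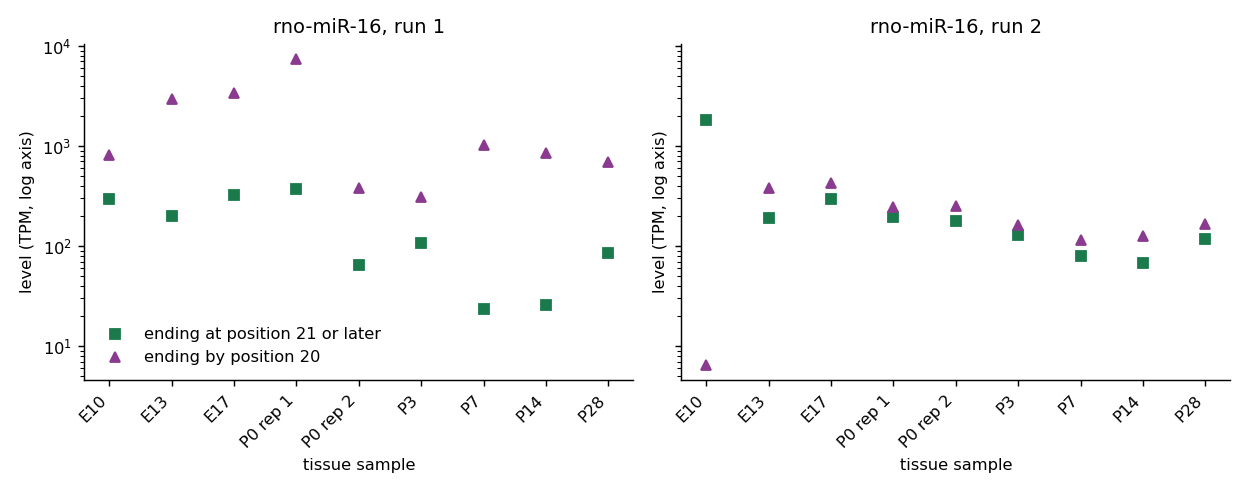
Level of rno-miR-16 tags ending at position 21 or later (squares) and by position 20 (triangles) in each tissue sample, in TPM on a log axis, with run 1 on the left and run 2 on the right. In run 1 the short tags lie above the long tags in all 9 samples and peak at P0 replicate 1 (7366 TPM), and in run 2 the long tags are highest at E10 (1831 TPM), where the short tags are at 6.52 TPM.

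The share of rno-miR-16 reads that ended by position 20 was 73.4% to 97.8% in run 1, with a median of 91.3%. It was 55.5% to 67.0% in 8 samples of run 2, and 0.355% at E10 (of 30174 reads, 95% Wilson interval 0.294% to 0.428%). Run 2 minus run 1 was -35.4 ± 15.4 percentage points (lower in 9 of 9 samples, exact permutation p = 0.00391, adjusted over 6 shares 0.0117). For comparison, the median share of tags that short of their own mature end over names with at least 100 reads was 24.7% to 45.1% in run 1 and 0.83% to 26.3% in run 2. By this share rno-miR-16 ranked 19th to 55th of 211 to 302 names in run 1, 53rd to 80th in 8 samples of run 2 and 244th of 368 at E10 of run 2. Intervals here and below cover counting error only, since reads without molecular identifiers are not independent molecules.

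**Figure D3:**
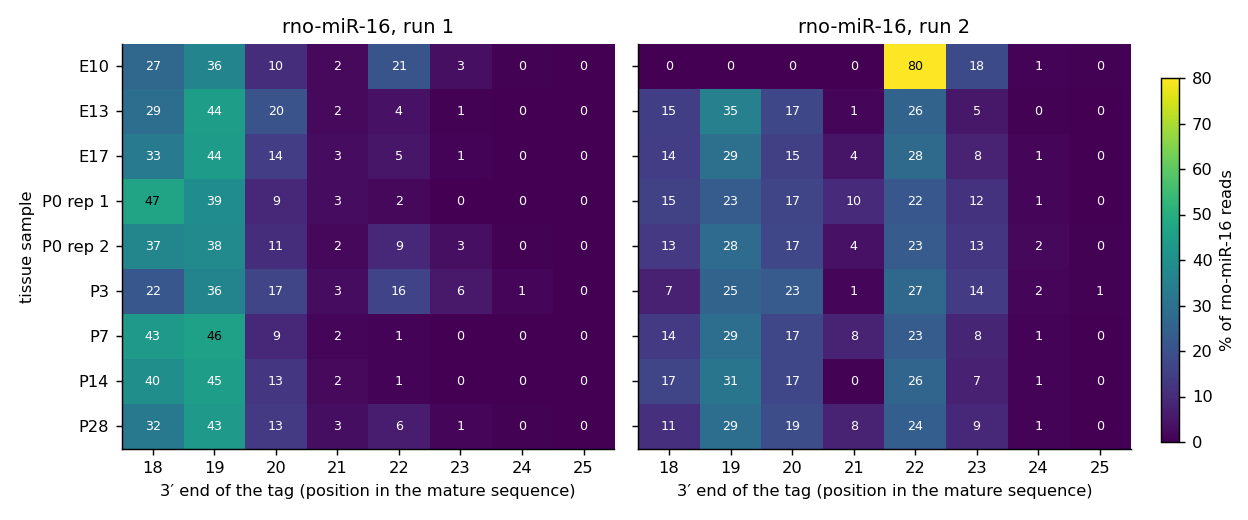
Share of rno-miR-16 reads by the position at which the tag ends, in percent of the reads of each library (rows, tissue samples; columns, positions 18 to 25 of the mature sequence, whose last base is 22). Run 1 libraries gather at positions 18 and 19, and in run 2 E10 has 80.2% of its reads at position 22 where the other samples have 21.8% to 27.7%.

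Reads running past the mature end made up 0.04% to 6.87% of rno-miR-16 reads in run 1 and 5.97% to 19.2% in run 2, a rise of 9.72 ± 2.94 percentage points (higher in run 2 in 9 of 9 samples, exact permutation p = 0.00391, adjusted 0.0117). Of the added first bases 76.5% in run 1 and 63.2% in run 2 were T, the base that follows in the RefSeq hairpin, and 22.7% and 36.4% were A, which the hairpin does not have there. An added U or A at the 3′ end is a known product of terminal nucleotidyl transferases, although the T here cannot be told apart from the hairpin's own base. Another 5′ end than the mature one, which would shift the seed, was found in 0.453% to 1.36% of reads in run 1 and 1.04% to 1.54% in run 2, with run 2 higher by 0.493 ± 0.352 percentage points (8 of 9 samples, exact permutation p = 0.0117, adjusted 0.0176).

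Over development rno-miR-16 had a slope of -0.34 ± 0.17 log2 per stage step (SE), which did not pass the threshold (adjusted p = 0.105, edgeR; 27.3% of names fell and 17.2% rose, and with library totals in place of TMM 177 of 477 fell and 45 rose). In run 2 alone the slope was -0.29 ± 0.10 and passed it (adjusted p = 0.036, edgeR; 27.1% of names fell), whereas run 1 by itself gave -0.30 ± 0.24 (adjusted p = 0.361, edgeR). Counting only tags that end at position 21 or later, the slope was -0.35 ± 0.12 (adjusted p = 0.0301, edgeR; 29.9% of names fell and 17.6% rose). At E10 these longer tags had 3257 reads in run 1 and 30067 in run 2, and no fit of them left out E10. The slope was thus between -0.35 and -0.29 in these 4 counts, and its call differed between them. DESeq2 on the same reads as the first gave -0.32 ± 0.14 (adjusted p = 0.0463). It was -0.08 ± 0.16 (adjusted p = 0.7004, edgeR) when only the study's primer and candidate sequences served as table, with 120 names tested. A peak at middle stages was tested as the squared term of the stage order. For rno-miR-16 it was -0.106 ± 0.060 (log2 per squared step, SE, adjusted p = 0.326, edgeR; 2.52% of names passed), and with tags ending at position 21 or later -0.027 ± 0.050 (adjusted p = 0.783, edgeR).

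With shared tags counted, rno-miR-107 lay above rno-miR-16 in every library, closest in P0 replicate 1 of run 1 (8591 and 7741 TPM). Counting only its tags that reach position 22, it lay below all rno-miR-16 tags in run 1 at E13, E17, P0 replicate 1 and P7. Most rno-miR-107 reads could not be told from rno-miR-103. By the counting rule rno-miR-107 had 3505962 reads over all libraries, of which 81.2% also fitted rno-miR-103. Its level with shared tags was 46294 TPM at E10, 14545 at E13, 10274 at E17, 8591 and 19218 at P0, 20121.1 at P3, 9513 at P7, 9843 at P14 and 12124 at P28 in run 1. In run 2 it was 7129.9 TPM at E10, 28465 at E13, 16636 at E17, 11379 and 10212 at P0, 14447 at P3, 16913 at P7, 21491 at P14 and 17038 at P28. E10 was thus the highest stage in run 1 and the lowest in run 2. The runs differed in no common direction (0.05 ± 1.23 on the log2 scale, higher in run 2 in 6 of 9 samples, exact permutation p = 0.926), and edgeR gave 0.55 ± 0.43 (adjusted p = 0.316). Without E10 edgeR gave 0.81 (adjusted p = 0.0436).

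Tags that reach position 22 with the rno-miR-107 base gave a level that can be assigned. It was 6836 TPM at E10, 1153 at E13, 1239.6 at E17, 609 and 2906 at P0, 3597 at P3, 958 at P7, 1118 at P14 and 2317 at P28 in run 1. In run 2 it was 5536 TPM at E10, 4342 at E13, 1900.2 at E17, 2993 and 1487 at P0, 3009 at P3, 3484 at P7, 4310.1 at P14 and 3529 at P28. On these tags E10 was the highest stage in both runs, and the log2 ratio of run 2 to run 1 at E10 was -0.30, where with shared tags it was -2.70. E10 also had the lowest share of tags ending by position 21 in each run, over the tags of rno-miR-107 and rno-miR-103 together (43.3% and 4.08%). The part of this share in the order of the stages was not tested. The remaining tags, ending by position 21, stood at 39458 TPM at E10 in run 1 and at 1594 TPM in run 2.

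The corresponding level of rno-miR-103, from tags with its own base at position 22, was between 864 and 44870 TPM in run 1. In run 2 it ranged from 10342 to 31907 TPM, and it was also highest at E10 in both. With shared tags rno-miR-103 was highest at E10 in run 1 (84327.5 TPM). In run 2 it was then highest at E13 (48658 TPM), with E10 at 33501 TPM. rno-miR-103 exceeded rno-miR-107 on assignable tags in all 18 libraries, by 1.19-fold (P14, run 1) to 7.17-fold (E17, run 2). Reads with the rno-miR-107 base were 13.2%, 28.1%, 30.2%, 41.4%, 22.2%, 20.2%, 39.6%, 45.7% and 45.4% of those reaching position 22 in run 1, in the order from E10 to P28 with both P0 samples. In run 2 they were 14.8%, 15.0%, 12.2%, 22.2%, 12.6%, 15.0%, 21.6%, 24.0% and 20.96%. Run 2 minus run 1 was -14.2 ± 8.41 percentage points (lower in run 2 in 8 of 9 samples, exact permutation p = 0.00781, adjusted 0.0156). Among tags of 23 nt or more with the rno-miR-103 base at position 22, some continued with G in place of the mature A. This part was 5.25% to 21.6% in the 6 run 1 libraries with shares of 28.1% or more. In the other 3 run 1 libraries that value was 0.0817% to 0.217%, and in run 2 it was at most 0.0518%. The part of such base changes in the rno-miR-107 share was not tested.

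**Figure D4:**
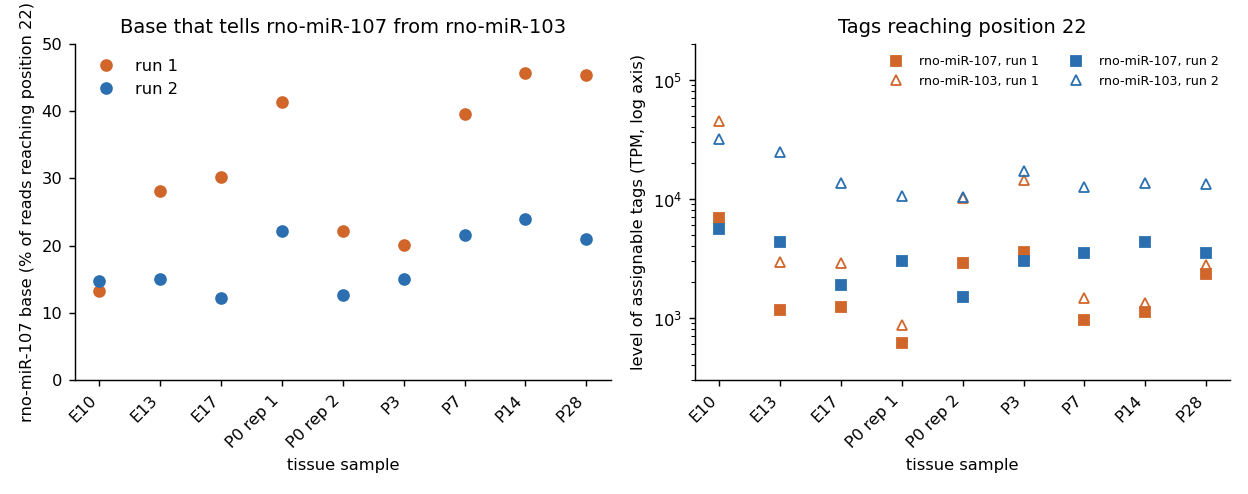
Left, reads with the rno-miR-107 base in percent of rno-miR-107 and rno-miR-103 reads that reach position 22, in each tissue sample. Right, level of these assignable tags of rno-miR-107 (squares) and rno-miR-103 (open triangles) in TPM on a log axis; colours mark the runs. The share is 13.2% to 45.7% in run 1 and 12.2% to 24.0% in run 2, and rno-miR-103 lies above rno-miR-107 in every library.

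Across the stages the share of the rno-miR-107 base had Pearson's r = 0.763 with the stage order over 9 tissue samples (runs averaged, exact permutation p = 0.0215, adjusted over 6 shares 0.0645) and Spearman's rho = 0.711 (exact permutation p = 0.0371, adjusted 0.111). Without E10 and P28, the samples farthest from the median stage, r was 0.590 (exact permutation p = 0.170). It was 0.758 within run 1 (exact permutation, adjusted p = 0.0625) and 0.683 within run 2 (exact permutation, adjusted p = 0.299). None of these passed after adjustment. Leaving out P0 replicate 1 gave r = 0.838 and leaving out P3 gave r = 0.846, both past the threshold (exact permutation, adjusted p = 0.0405 and 0.0341).

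The 5′ end of the reads counted for rno-miR-107, most of which fit rno-miR-103 too, was other than the mature one in 0.473% to 1.98% of reads in run 1 and 0.65% to 1.24% in run 2. Its share fell with the stage order over the averaged runs (r = -0.919, exact permutation p = 0.00059, adjusted 0.00354; rho = -0.879, exact permutation p = 0.00322, adjusted 0.0193), and without E10 and P28 r was -0.819 (exact permutation p = 0.0286). Within single runs the relation did not pass after adjustment. In run 1 r was -0.747 (exact permutation p = 0.00951, adjusted 0.0571), and -0.502 without E10 and P28 (exact permutation p = 0.245). In run 2 r was -0.219 (exact permutation p = 0.570, adjusted 0.684), and -0.919 without E10 and P28 (exact permutation p = 0.00635). For rno-miR-103, counted with the same shared tags, other 5′ ends made up 3.14% of reads at E10 and 1.02% at P28 in run 1, and 2.52% and 1.19% in run 2, so the fall cannot be assigned to rno-miR-107. Where 1 base was added at the 5′ end of reads counted for rno-miR-107 it was C in 75.7% (run 1) and 80.8% (run 2) of reads, and A, the base of the RefSeq hairpin, in 15.0% and 8.96%. An added base at the 5′ end would give rno-miR-107 the seed AGCAGCA of rno-miR-16. Tags with 1 added base were 0.019% to 0.243% of rno-miR-107 reads. The shares of the other ends did not pass the threshold against the stage order, with r between -0.495 and 0.520 (exact permutation, adjusted p of 0.260 or more).

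Shortening of rno-miR-107 could not be measured apart from rno-miR-103, since every tag ending by position 21 fits both. Over the tags of both names together, those ending by position 21 made up 43.3% (E10) to 84.4% (P0 replicate 1) of reads in run 1 and 4.08% (E10) to 48.9% (P14) in run 2. The lowest of these, E10 of run 2, was also the library in which rno-miR-16 was least shortened. Past the mature 3′ end the added base of rno-miR-107 was T in 69.3% of such reads in run 1 and 73.5% in run 2, a base that the hairpin does not have there, and A, the hairpin's base, in 28.1% and 24.3%.

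For rno-miR-107 the slope over development was 0.03 ± 0.11 log2 per stage step (SE, adjusted p = 0.845, edgeR), with a squared term of -0.063 ± 0.042 (adjusted p = 0.410, edgeR). Neither passed the threshold in this fit. The slope of rno-miR-107 was -0.14 in run 1 alone and -0.061 with library totals in place of TMM. It was 0.27 (adjusted p = 0.0333, edgeR) with the study's primer and candidate sequences as table. On tags with its own base at position 22 the slope was 0.04 (adjusted p = 0.752, edgeR), and the run difference there was 1.21 (log2, adjusted p = 0.0377, edgeR), an alternative added with the values in view. The same reads gave 0.80 (adjusted p = 0.153, edgeR) in the table where every name was limited to tags reaching the base before its mature end. As TPM their log2 ratio was 0.86 ± 1.19 (higher in run 2 in 6 of 9 samples, exact permutation p = 0.0742). The call thus changed with the table or the test, and the scaling alone was not varied on these reads.

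Of the 8 names that carry the superfamily seeds, rno-miR-15b and rno-miR-503 fell and rno-miR-195 and rno-miR-497 rose, beside 27.3% falling and 17.2% rising among all names, and the other 4 did not pass. With 2 of 8 names called in each direction, these counts are close to the shares among all names. rno-miR-15b, the genomic neighbour of rno-miR-16, had a slope of -0.56 ± 0.11 log2 per stage step (SE, adjusted p = 0.00140, edgeR), and in run 1 alone -0.58 (adjusted p = 0.0616, edgeR). Its level was 18.9 to 533 TPM in run 1, highest at E13, and 20.7 to 572 TPM in run 2, highest at E10. rno-miR-503, induced in many differentiating cells, fell by 0.46 ± 0.10 per step (adjusted p = 0.00184, edgeR), and its maximum lay at E10 in both runs, with 3103 and 2279.9 TPM. rno-miR-322, its neighbour, changed by -0.32 ± 0.13 (adjusted p = 0.0503, edgeR).

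rno-miR-195 rose by 0.68 ± 0.16 per step (adjusted p = 0.00434, edgeR), with its maximum at P28 in both runs, at 264 and 92.7 TPM. The oligodendrocyte markers rno-miR-219a-2 (17548 and 3316 TPM) and rno-miR-338 (67.6 and 199.3 TPM) were also highest at P28 in both runs, and their part in this rise was not tested. rno-miR-497, its neighbour, had a slope of 0.56 ± 0.19 (adjusted p = 0.0298, edgeR; in run 1 alone 0.47, adjusted p = 0.142, edgeR), with levels between 3.22 and 65.3 TPM in run 1 and between 4.39 and 76.0 TPM in run 2. rno-miR-103 had a slope of -0.04 ± 0.11 (adjusted p = 0.779, edgeR). With tags ending at the base before the mature end or later, rno-miR-16 and rno-miR-322 also fell and rno-miR-497 no longer passed (0.46 ± 0.22, adjusted p = 0.103, edgeR). The median slope was -0.33 over the 6 names of the miR-15/16 group, -0.18 over all 8 and -0.09 over all names tested. None of the 8 passed the test of the squared term with edgeR, and 2 had an unadjusted p under 0.05, as had 108 of the 477 names tested.

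**Figure D5:**
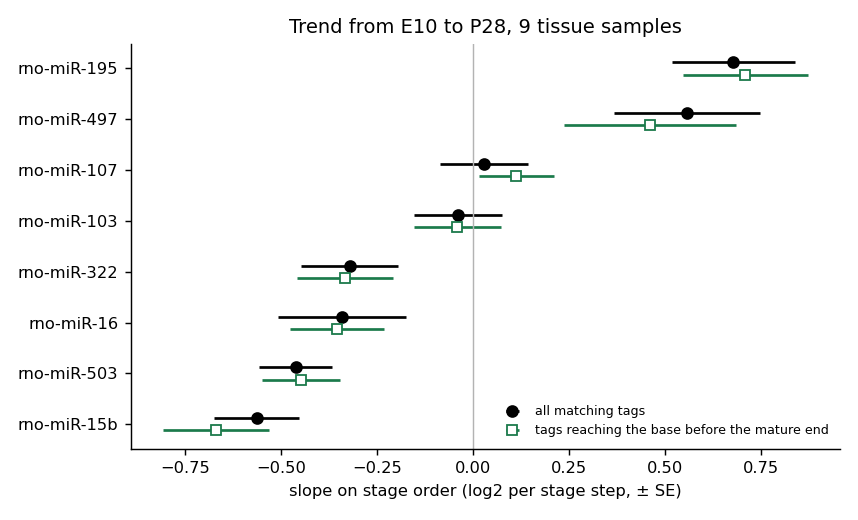
Slope on the stage order, in log2 per stage step with its SE, for the 8 names that carry the superfamily seeds over 9 tissue samples with runs summed; circles count all matching tags and open squares only tags reaching the base before the mature end. rno-miR-195 and rno-miR-497 lie right of 0 (0.68 and 0.56), rno-miR-15b and rno-miR-503 farthest left (-0.56 and -0.46), and rno-miR-107 and rno-miR-103 near 0.

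The other arm of rno-miR-322 had more reads than the seed-carrying one (439145 and 32109). Of the 7 opposite arms found, 4 had enough reads to be tested and 2 fell, where 27.3% of all names fell. These were rno-miR-16-3p (-0.58 ± 0.11, adjusted p = 0.000949, edgeR), with 595 reads in all, and rno-miR-15b-3p (-0.58 ± 0.11, adjusted p = 0.00126, edgeR). Between the runs rno-miR-195 was also lower in run 2 (-1.32 ± 0.35, adjusted p = 0.00717, edgeR) and rno-miR-103 higher (1.13 ± 0.40, adjusted p = 0.0323, edgeR), beside 17.5% of all names lower and 26.1% higher. Shortening was not shared evenly, since tags ending 2 or more bases before the mature end made up 91.3% of rno-miR-16 reads in run 1 but 28.6% of those of rno-miR-15b, with rno-miR-322 at 97.0% and rno-miR-497 at 75.7%. In run 2 the pooled values were 35.7% for rno-miR-16, 17.9% for rno-miR-15b, 87.0% for rno-miR-322 and 51.8% for rno-miR-497. The first of these joins E10, at 0.355%, with 8 samples at 55.5% to 67.0%. E10 gave 9398 run 2 reads of rno-miR-15b, against 307 to 1370 in the other samples. For rno-miR-322 it gave 12774, against 389 to 1212. The pooled values of these names thus rest mainly on E10 and do not compare shortening in the other samples. The reads of rno-miR-16 exceeded those of rno-miR-15b by 5.92-fold (E13) to 56.0-fold (P7) in run 1 and by 3.21-fold (E10) to 19.8-fold (P0 replicate 1) in run 2. On tags reaching the base before the mature end the ratio was 0.495 at E13 and 2.23 at P7 in run 1, and 3.30 at E10 and 18.2 at P0 replicate 1 in run 2. At P7 of run 2 the ratio was 9.25 with all tags and 8.65 on these tags, and at E13 of run 2 it was 5.35 and 2.67.

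Counted without names, tags with AGCAGC at positions 2 to 7, the register of the miR-15/16 seed, stood at 688 TPM (P14, run 2) to 11699 TPM (P0 replicate 1, run 1). rno-miR-16 gave 20.9% to 65.7% of them. Tags with AGCAGC at positions 1 to 6, the register of rno-miR-107, stood at 10229 TPM (P0 replicate 1, run 1) to 93060 TPM (E10, run 1), and rno-miR-103 and rno-miR-107 gave 86.7% to 97.4% of them. The same library was thus highest in one register and lowest in the other.

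The names most like rno-miR-16 over the 9 tissue samples, by the lower of Pearson's r in each run among 191 names, were rno-miR-708-3p (r = 0.92 in run 1 and 0.94 in run 2), rno-miR-374-5p (0.93 and 0.89), rno-miR-708-5p (0.87 and 0.92), rno-miR-135b-5p (0.86 and 0.88) and rno-miR-130a-3p (0.85 and 0.95). For rno-miR-107 they were rno-let-7a-5p (0.69 and 0.69), rno-miR-101b-3p (0.87 and 0.64), rno-miR-433-3p (0.59 and 0.55), rno-let-7i-5p (0.81 and 0.54) and rno-miR-103-3p (0.996 and 0.53), the last of which shares tags with it. These are descriptions over libraries that share their depth and their loss or gain of short tags.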

How the data were processed

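Per the labels, small RNA of 16 to 35 nt was sequenced on a Genome Analyzer II, whereas the study's text names another size range and the Solexa 1 G Genome Analyzer. The deposited tags are 18 to 30 nt long in run 1 and 18 to 39 nt in run 2. Reads of low quality and adaptor products had been filtered out and identical reads merged by the authors, and the deposited values are whole-number counts per tag with its length, unnormalized. Each of 18 libraries is 1 technical replicate of 1 tissue sample, so p-values over runs and stages measure the spread between these 9 samples.

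Tags were counted for a RefSeq mature sequence (GRCr8) when they matched it without a mismatch over the shared length, with the 5′ end within 3 nt of the mature one and at most 3 nt past its 3′ end. Tags of 18 nt or more were used. TPM is reads per 1000000 clean reads of the library. edgeR 4.0.16 (R 4.3.3) fitted quasi-likelihood models with TMM and Benjamini-Hochberg adjustment over all names with at least 10 reads in at least 2 samples. The stage order ran in unit steps, with the runs of a sample summed. The run difference had the tissue sample as block. Shares were compared by two-sided exact sign-flip tests (512 flips) and exact permutation tests (362880 orders), adjusted over 6 shares. DESeq2 1.42.0 was an alternative.

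The named microRNAs were both members, every name of the family list found in the table, and for each member the 5 names with the highest correlation of log2(TPM + 1) among names with a mean of at least 50 TPM. The members and lists were chosen with earlier results of these data known. Alternatives with tags reaching the base before the mature 3′ end, and for the run difference with the rno-miR-107 base, were added after seeing the data. On simulated counts the slope fit recovered 190 of 200 changed names (8 false calls, slope 0.6), the squared term 101 of 198 (effect 0.15) and the run fit 194 of 199 (effect 2). These effects were larger than the main estimates for both members. The recovery therefore does not tell how often effects of the members' size would be found.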

Additional observations from a re-analysis of the deposited data

Results flagged for a closer look

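At P0, 4 libraries (2 tissue samples in 2 runs) were screened for a library far from the others with Dixon's test, and 8 of 21 sets held such a library, where chance gives about 1 in 20. The sets share libraries and are not independent. In P0 replicate 1 of run 1, rno-miR-16 stood at 7741 TPM against 427 to 441 TPM in the others, and its tags ending by position 20 at 7366 TPM against 244 to 376 TPM. In the same library rno-miR-15b stood at 255 TPM (others 22.2 to 46.0 TPM), rno-miR-195 at 164 TPM (12.6 to 37.9 TPM) and rno-miR-322 at 610 TPM (26.2 to 55.0 TPM), and rno-miR-103 with its own base at position 22 stood lower, at 864 TPM (10208 to 10492 TPM). Tags of rno-miR-107 ending by position 21 stood at 16312 TPM in P0 replicate 2 of run 1 (7982 to 8725 TPM), and rno-miR-503 at 487 TPM in P0 replicate 1 of run 2 (290 to 310 TPM).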

How the results depend on the processing

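Of 258 alternative values of single tests, 229 kept their direction and side of the threshold, and of 60 alternative counts of names 48 stayed within 1.5 times the main count. The slope of rno-miR-16 passed the threshold in run 2 alone (-0.29), with DESeq2 (-0.32), on tags identical to the mature sequence (-0.36), on tags reaching the base before the mature end (-0.35) and without E10 (-0.46, adjusted p = 0.0442, edgeR; range over samples left out -0.46 to -0.27). With the study's primer and candidate sequences as table it was -0.08 (adjusted p = 0.7004, edgeR). The slope of rno-miR-107 was -0.14 in run 1 alone, -0.061 with library totals in place of TMM, 0.27 (adjusted p = 0.0333, edgeR) with the study's primer and candidate sequences as table, and -0.028 (without E10) to 0.13 with a sample left out. Without TMM the median of all names moved by -0.419 for the run difference. The squared term turned to 0.015 for rno-miR-16 on identical tags and to 0.044 for rno-miR-107 without TMM, with ranges of -0.23 to -0.03 and -0.08 to -0.03 over samples left out.

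The names past the slope threshold (212) numbered 118 in run 1 alone, 53 of 120 with the study's sequences and at most 228 with a sample left out, and the count fell by 67 without P28. Those past the squared term (12) numbered 0 in run 1 alone with edgeR (41 at an unadjusted p under 0.05), 34 in run 2 alone, 50 with DESeq2, 79 without TMM, 19 on tags reaching the base before the mature end, and 2 (without E10) to 19 (without P0 replicate 1), with 7 without P0 replicate 2. Those past the run threshold (207) numbered 34 of 120 with the study's sequences and 163 to 231 with a sample left out.

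The run difference of rno-miR-16 was 1.01 on identical tags, 0.69 on tags reaching the base before the mature end, -0.92 with the study's sequences, where it no longer passed (adjusted p = 0.0857, edgeR), and -1.55 to -1.07 with a sample left out (without P7 adjusted p = 0.0538, edgeR). That of rno-miR-107 was 1.21 on tags with its own base, 1.12 together with rno-miR-103, 0.80 on tags reaching the base before the mature end (adjusted p = 0.153, edgeR), and 0.35 to 0.81 (without E10 adjusted p = 0.0436, edgeR). The relation to the stage order ranged from -0.017 (without E10) to 0.71 for short rno-miR-16 tags, -0.74 (without E10) to 0.54 for short tags counted for rno-miR-107 (-0.32 in run 1 alone), a share that joins short tags of rno-miR-103 and is not read further, -0.57 to 0.011 (without E10) for tags past the end and 0.67 to 0.85 for the rno-miR-107 base. For other 5′ ends of rno-miR-107 it was -0.75 in run 1 and -0.22 in run 2, and the run difference was 0.029 to 0.27 points (without E10 exact permutation, adjusted p = 0.0188). The causes were not tested.

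With the run number as replicate block over 18 libraries the slopes were -0.29 for rno-miR-16 (adjusted p = 0.0378, edgeR) and -0.043 for rno-miR-107, the squared terms -0.07 and -0.02, and 300 and 70 names passed. This fit counts each of the 9 tissue samples in both runs, and with the runs summed per sample the slope of rno-miR-16 did not pass (adjusted p = 0.105, edgeR). Deviations of same-numbered libraries correlated at 0.0784 to 0.967 over 36 pairs of tissue samples, 35 of them over 0.1. The numbers were not taken to pair the samples, since the rule asked for every pair over 0.1 and the labels tie a number to no shared batch, although most pairs did deviate together. The longest tag was 30 nt in the run 1 libraries and 39 nt in those of run 2. The tests of run 2 against run 1 take a number to mean the same in every sample.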
